A study of Mus musculus with 39 samples.

Results

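The respiratory chain of the inner mitochondrial membrane was followed through its protein subunits, 79 gene symbols of the 54735 rows in each tissue's table. They were chosen by symbol alone: 13 are protein-coding genes of the mitochondrial chromosome (mt-Nd, mt-Co, mt-Cytb and mt-Atp genes) and 66 are nuclear (Nduf subunits, Sdha to Sdhd, Uqcr genes and Cox5 to Cox8 genes in the plain form of their names). Complexes were assigned by symbol alone, so every Nduf gene, Ndufa4 included, was placed in complex I. Complex I thus held 7 mitochondrial and 36 nuclear members and complex II 4 nuclear members. Complex III held 1 and 10, complex IV 3 and 16, and ATP synthase (complex V) 2 mitochondrial members. Uqcrh-ps1, Uqcrh-ps2 and Cox6c2 carry such symbols but are annotated as processed pseudogenes. Liver and spleen RNA was taken from 4-week-old C57BL/6 mice that were wild type or labelled as lacking SXR (Nr1i2, also PXR), a nuclear receptor that switches on drug-metabolising genes. Perinatal exposure was either to DMSO alone or to PCB-153, one of the slowly cleared biphenyl pollutants, with a daily dose near 54 µg per kg. The 4 groups were wild type with DMSO (WD), wild type with PCB-153 (WP), knockout with DMSO (KD) and knockout with PCB-153 (KP), with 5 libraries each, except 4 for WD in spleen.

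Electrons from NADH enter the chain at complex I and electrons from succinate at complex II; both pass through complex III to complex IV, which reduces oxygen, and the proton gradient built on the way drives ATP synthase. Complexes I, III, IV and V are assembled from subunits of both genomes, whereas complex II is wholly nuclear-encoded. The mitochondrial genes are transcribed as long polycistronic RNAs that are cut into messenger, ribosomal and transfer RNAs, while each nuclear subunit has its own promoter, so the messages of the 2 genomes are made by separate machineries.

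Libraries held 15232298 to 28647032 counted reads in liver and 16099698 to 29524550 in spleen. The targeted gene, Nr1i2 (chr16:38248323-38294824, minus strand, mm10), was measured first. In liver it stood at 1706, 1546, 1328, 1781 and 1499 normalised counts in WD and at 768, 449, 969, 759 and 626 in KD. The KD livers were all lower (log2 fold change -1.18 ± 0.20 SE, limma adjusted p = 0.00415), with reads still present. With PCB-153 the liver ranges overlapped, at 1019 to 1939 in WP and 612 to 1155 in KP. In spleen the direction was the opposite, with Nr1i2 at 0 to 2.27 in the wild-type groups and at 42.9 to 62.8 in KD and 43.0 to 57.0 in KP. Whether the spleen labels are right, or the targeted gene still gives reads there as in knockout livers, was not tested. In spleen, KD and KP therefore stand for libraries labelled knockout, and directions between genotypes are directions between labels. The labels do not say whether libraries of a group are separate animals, so all p-values measure the spread between these libraries.

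Of the 13 mitochondrial members, several cannot be counted apart from copies of the mitochondrial chromosome on chromosome 1 (24611535 to 24616197, mm10, minus strand). The opening bases of mt-Nd3 and of its chromosome 1 copy Gm28438 are shown because they are the pair with a difference, which is in capitals at base 3 of the transcript:

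mt-Nd3: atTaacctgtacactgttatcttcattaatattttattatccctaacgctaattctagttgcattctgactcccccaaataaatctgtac
Gm28438: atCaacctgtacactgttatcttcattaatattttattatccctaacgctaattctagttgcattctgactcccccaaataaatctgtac

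That base was the single mismatch among the 345 compared. mt-Co2, mt-Atp6, mt-Co3 and mt-Nd4l matched their copies (Gm28661, Gm10925, Gm28437 and Gm10222) at every base over 681, 678, 783 and 294 bases. In every library these 5 copies carried between 99.2% and 100.1% of their partner's count, so 1 set of reads stands in both rows, and each value of these members is that of the pair. The other 2 copies are shorter than their partners and served as a ruler for where reads fall along a message. Gm28439 equals the first 876 of the 1378 bases of mt-Nd4, and Gm29216 corresponds to bases 1054 to 1545 of mt-Co1, its last part, with 6 mismatches. mt-Nd6 is the one member read from the light strand, and featureCounts' strand option is not stated in the labels, so its reads and those of RNA opposite to it cannot be told apart.

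The mitochondrial members were far more abundant than the nuclear ones. They took 5.35% to 12.2% of the counted reads in liver and 1.32% to 2.24% in spleen, whereas the nuclear members took 0.450% to 0.708% and 0.236% to 0.314%. Per kilobase of transcript, the median level was 103635 normalised counts for the mitochondrial members and 1456 for the 62 nuclear members with a mean of at least 10 in liver, and 20854 and 715 in spleen. The plot of levels per kilobase shows the order within the mitochondrial chromosome.

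**Figure D1:**
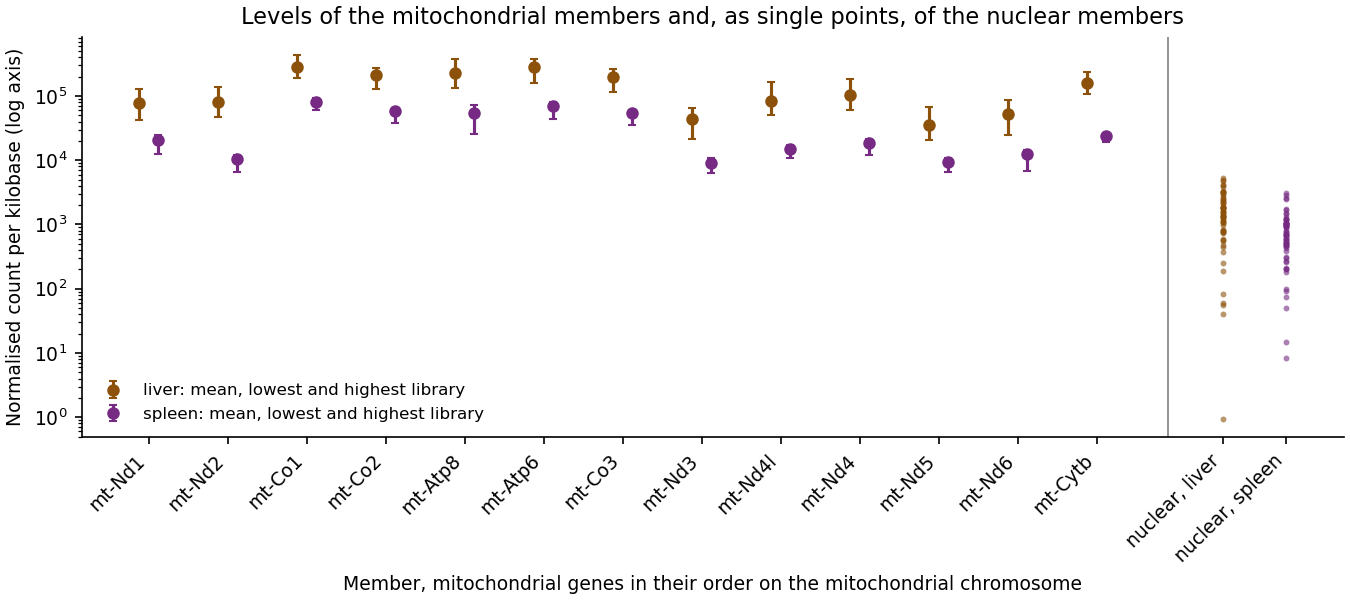
Normalised count per kilobase of transcript (log axis) for each mitochondrial member in chromosome order (mean with the lowest and highest library, 20 liver and 19 spleen libraries) and, at the right, the mean of each nuclear member as a point. The mt-Co and mt-Atp genes lie highest in both tissues, and mt-Nd5 in liver (34927) and mt-Nd3 in spleen (9010) lie lowest.

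The subunits of complexes IV and V led in both tissues. In liver mt-Atp6, the proton channel subunit of ATP synthase, reached 283717 per kilobase and mt-Co1, the catalytic core of complex IV, 281596, and their ranges over libraries (160483 to 381295 and 191521 to 436530) overlapped, so these neighbours are not ordered. mt-Cytb, the single mitochondrial subunit of complex III, followed at 158677 in liver and 24078 in spleen. The means of all 7 complex I members lay below that of mt-Cytb in both tissues, from 103635 (mt-Nd4) down to 34927 (mt-Nd5) in liver. Ranges over libraries overlapped, for instance for mt-Nd4 in liver (61231 to 185150, mt-Cytb 106389 to 235784). In spleen mt-Nd1 (12683 to 24505) overlapped mt-Cytb (19138 to 26921), so these are not ordered either. Among nuclear members the highest levels per kilobase of the longest transcript were those of complex IV subunits: Cox6a1 (5352), Cox8a (4965) and Cox6b1 (4838) in liver and Cox8a (3069), Cox6a1 (2912) and Cox6b1 (2550) in spleen. That order depended on the length used. With the mean transcript length, Cox6b1 (7319), Sdha of complex II (6922) and Ndufa4 (6129) led in liver, and Sdha (4553), Cox6b1 (3858) and Uqcrh of complex III (3641) in spleen.

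Complex IV is the complex with tissue-specific paralogs, and the widely expressed forms carried nearly all reads. In liver Cox6a1 held 178 CPM on average (its count relative to the library's total, the usual CPM scale) and its heart and muscle counterpart Cox6a2 0.0342. Cox7a2 held 113 and the muscle form Cox7a1 1.53, while Cox8b and Cox8c, the muscle and testis counterparts of Cox8a, were listed at 0 in liver. Cox7b2 and Cox8c were at 0 in both tissues. The testis form Cox6b2 stood apart: 27.7 CPM in spleen (lowest library 20.6, highest 45.2) against 1.25 in liver (highest 2.17), beside 79.6 and 160 for Cox6b1, and no annotated gene overlaps it. Cox6a2 at 3.43 CPM in spleen is uncertain, since its 953 bases lie wholly within Itgad on the other strand, a gene with a mean of 1667 normalised counts there. Of the 79 members, 75 in each tissue reached a mean of 10 normalised counts and were tested. Those below were Cox6a2, Cox7b2, Cox8b and Cox8c in liver and Cox7a1, Cox7b2, Cox8b and Cox8c in spleen.

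The exposure was followed first in liver, where the medians of the 2 genomes lay on opposite sides of 0 and no member passed the test. In wild-type livers all 13 mitochondrial members had a lower mean in WP than in WD, with a median log2 fold change of -0.23, while 59 of 62 nuclear members had a higher mean, with a median of 0.23 (all 16155 genes tested: median -0.01). Between KP and KD all 13 mitochondrial members were again lower (median -0.23) and 57 of 62 nuclear members were higher (median 0.14, all genes 0.00). In both comparisons 0 of 75 members were called at a limma adjusted p under 0.05, as were 0% of all genes. Of the 75, 9 and 5 members had an unadjusted limma p under 0.05, against 6.69% and 9.85% of all genes. edgeR and DESeq2 called 0 members in both, with 8 members under 0.05 unadjusted between WP and WD and 7 between KP and KD for each tool. Over all genes edgeR called 0 in both, and DESeq2 called 0 between WP and WD and 55 between KP and KD. The mitochondrial median between WP and WD was -0.04 without WP replicate 3, and without WP replicate 1 it was -0.34. The nuclear median there was 0.14 without WD replicate 1. Between KP and KD the mitochondrial median was -0.35 without KP replicate 2 and -0.15 without KD replicate 3, and the nuclear median was 0.22 without KP replicate 5. WP against WD and KP against KD share no library, but the members of one genome share theirs, so the counts of members are not independent observations.

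**Figure D2:**
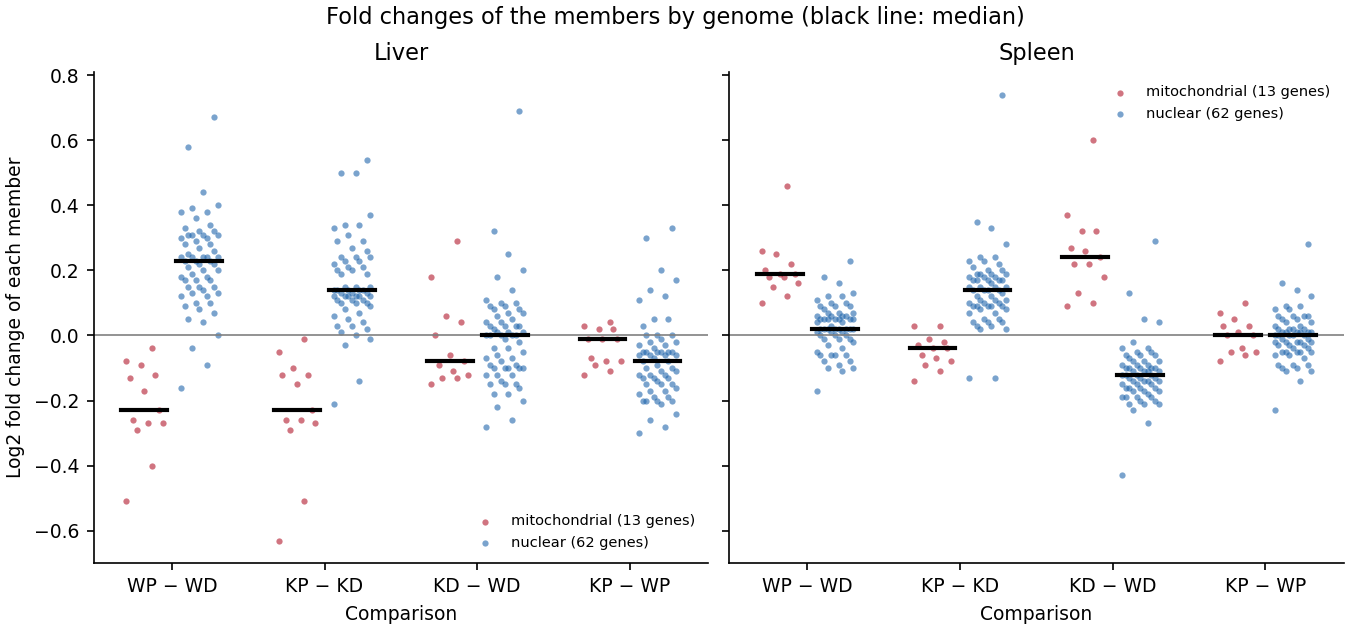
Log2 fold change of each tested member in 4 comparisons, mitochondrial members in red and nuclear members in blue, with the median as a black line. In liver the medians of both exposure comparisons lie at -0.23 for the mitochondrial members and at 0.23 and 0.14 for the nuclear ones. In spleen the medians lie furthest apart between KD and WD, at 0.24 and -0.12.

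A per-library balance, the mean log2(normalised count + 1) of the 13 mitochondrial members minus that of the 62 nuclear ones, showed how far single libraries carried this. It was 7.16, 6.09, 5.76, 5.93 and 6.31 in WD and 6.11, 5.73, 5.22, 5.90 and 6.09 in WP. The groups overlapped, WD replicate 1 was the highest of all livers and WP replicate 3 the lowest. The difference of the means was -0.44, and -0.21 without WD replicate 1. In KD the balance was 6.17, 6.36, 6.46, 6.13 and 6.06 and in KP 5.49, 6.07, 5.80, 5.79 and 6.05, with only KP replicate 2 reaching into the KD range. Their difference was -0.39 and stayed between -0.45 and -0.30 with any library left out. No p-value is given for the balance, since it is a score over the chosen members.

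**Figure D3:**
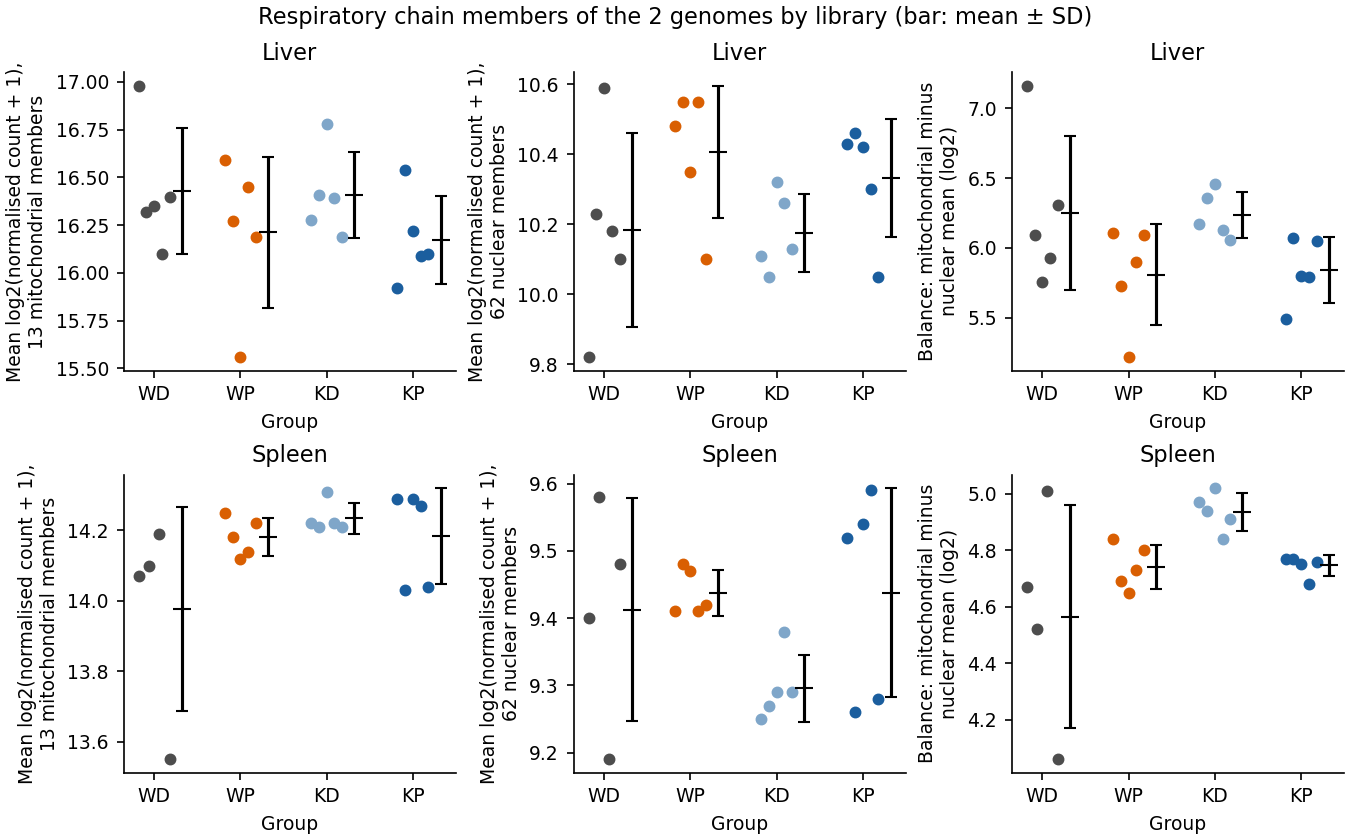
Mean log2(normalised count + 1) of the 13 mitochondrial members, of the 62 tested nuclear members, and their difference, 1 point a library, with the mean ± SD of each group of 4 or 5. Liver WD replicate 1 stands highest in balance (7.16) and spleen WD replicate 5 lowest among spleens (4.06), and in spleen every KD library (4.84 to 5.02) lies above every KP library (4.68 to 4.77).

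The mitochondrial members with the largest differences between KP and KD were the first genes of shared messages. mt-Atp8 and mt-Nd4l are read from the 5′ part of 2-gene messages that go on into mt-Atp6 and mt-Nd4. mt-Atp8 stood at 56100, 59916, 77535, 56768 and 49214 normalised counts in KD and at 30387, 45410, 39389, 39058 and 38164 in KP. All KP values were lower, with a log2 fold change of -0.63 ± 0.18 (limma adjusted p = 0.386), while its partner mt-Atp6 differed by -0.15 ± 0.19. mt-Nd4l likewise differed by -0.51 ± 0.18 (adjusted p = 0.424, ranges apart) and mt-Nd4 by -0.27 ± 0.21. Between WP and WD the same pairs gave -0.27 and -0.12, and -0.51 and -0.27, with overlapping ranges. The other complex I members lay between -0.08 (mt-Nd3) and -0.40 (mt-Nd5) there and between -0.12 (mt-Nd1) and -0.29 (mt-Nd5) between KP and KD. The complex IV core subunits mt-Co1, mt-Co2 and mt-Co3 lay between -0.17 and -0.04 in both comparisons, and mt-Cytb was at -0.13 ± 0.18 and -0.01 ± 0.18.

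Taken as a ratio within each library, which no scaling of libraries changes, mt-Atp8 was 27.9% to 30.6% of mt-Atp6 in KD livers (median 29.5%). It was 18.9% to 22.2% in KP (median 21.4%), 20.8% to 27.5% in WD (25.1%) and 19.2% to 26.3% in WP (22.1%). KD lay wholly above both KP and WD. Each of these 2 differences had an exact two-sided permutation p of 0.00794, the smallest that 5 against 5 can give, and an adjusted p of 0.0847 over the 32 such tests made (4 ratios, 4 comparisons, 2 tissues). mt-Nd4l as a share of mt-Nd4 was 18.6% ± 0.567 (SD, n = 5) in KD and 15.9% ± 1.69 in KP, also without overlap, with the same exact permutation p of 0.00794 and adjusted p of 0.0847. These ratios were tested in the libraries where mt-Atp8 and mt-Nd4l already differed most between KP and KD. The adjustment does not cover that choice, so their p-values are no separate support. The 43 bases shared by mt-Atp8 and mt-Atp6 can place reads in either row.

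**Figure D4:**
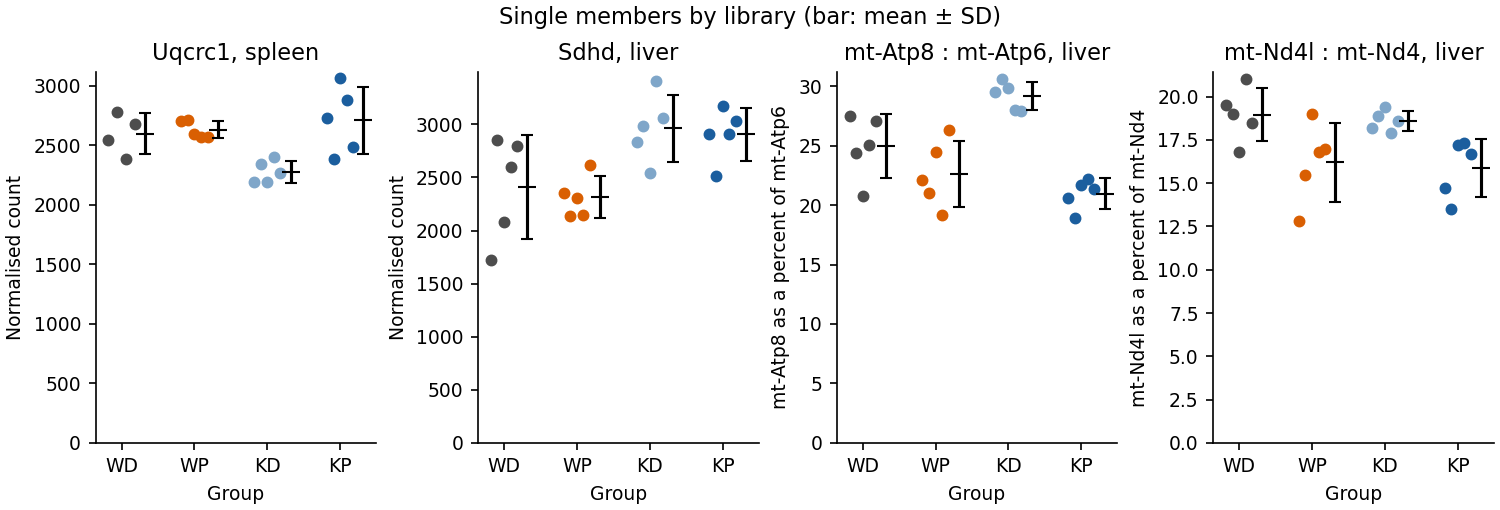
Normalised counts of Uqcrc1 in spleen and Sdhd in liver, and mt-Atp8 and mt-Nd4l in liver as percentages of mt-Atp6 and mt-Nd4, 1 point a library with the mean ± SD. KD spleens are lowest in mean for Uqcrc1 (2192 to 2401), with a KP library inside that range. Both knockout groups are highest in mean for liver Sdhd (2964 and 2907), and KD livers hold the highest mt-Atp8 share (27.9% to 30.6%).

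In liver, where reads fall along the longer messages varied with the balance. The first 876 bases of mt-Nd4 held 64.1%, 55.1%, 47.0%, 53.7% and 57.7% of its reads in WD livers and 51.2%, 46.2%, 49.0%, 50.5% and 54.3% in WP. They held 55.0% to 58.6% in KD and 44.1% to 56.4% in KP. The KD and KP means, 56.9% and 50.6%, differed with an exact permutation p of 0.0159 (adjusted 0.102). The last part of mt-Co1 held more reads where the first part of mt-Nd4 held fewer: 39.4% ± 1.24 (SD, n = 5) in KD and 43.8% ± 3.03 in KP.

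Across the 20 livers the share in the first part of mt-Nd4 and the mean log2 level of the nuclear members had a Pearson r of -0.88 (Spearman -0.83, Pearson -0.86 without the 2 libraries farthest from the median share), and -0.85 for deviations from the group means. For the balance r was 0.86 (Spearman 0.87, Pearson 0.77 without those 2), and 0.81 for deviations from the group means. Without WD replicates 1 and 3, the farthest in deviation, the liver deviations gave -0.70 for the nuclear level and 0.64 for the balance. Across the 19 spleens r was -0.54 for the nuclear level and 0.81 for the balance. For deviations from the group means in spleen these were -0.54 and 0.73, and -0.35 and 0.29 without the 2 farthest libraries, WD replicates 4 and 5, so the relation within groups rested largely on those libraries. These are descriptions over libraries that share preparation and scaling, with no p. With that share as a covariate, a choice made after seeing the data that uses reads of a member, the nuclear median changed from 0.23 to -0.01 between WP and WD and from 0.14 to -0.10 between KP and KD. The mitochondrial median changed from -0.23 to -0.07 and to -0.03.

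**Figure D5:**
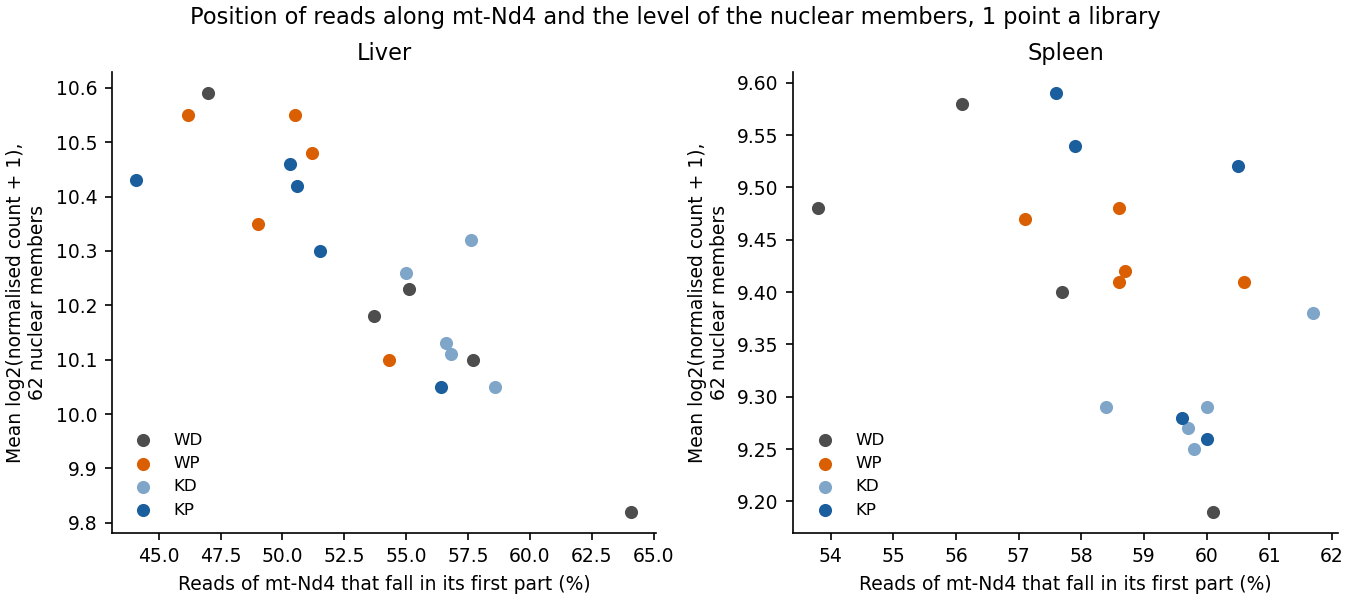
Mean log2(normalised count + 1) of the 62 nuclear members against the percent of mt-Nd4 reads in its first 876 bases, 1 point a library, coloured by group, liver left and spleen right. In liver the points run from WD replicate 3 (47.0%, 10.59) to WD replicate 1 (64.1%, 9.82).

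Short transcripts as a class differed in the same direction as the nuclear members. Of the 62 tested nuclear members 32 have a longest transcript under 1000 bases. The 566 other protein-coding genes of that length had a median log2 fold change of 0.19 between WP and WD, with 81.8% higher, while the 7321 genes of 3000 bases and over had -0.05. Between KP and KD the same classes gave 0.13 and -0.05. The 76 cytosolic ribosomal protein genes, also short, had 76 and 75 members higher and medians of 0.21 and 0.20. The nuclear members with the lowest log2 fold changes, Sdha and Ndufs1, were long. Sdha, the flavoprotein of complex II (2900 bases), had -0.16 ± 0.16 between WP and WD and -0.21 ± 0.16 between KP and KD. Ndufs1, the largest iron-sulphur subunit of complex I (2661 bases), had -0.09 ± 0.13 and -0.14 ± 0.13. Next came Sdhd, which is shorter (1231 bases), at -0.04 ± 0.12 and -0.03 ± 0.12. The longer Ndufb7 and Ndufb2 (4435 and 4371 bases) were not among the lowest. The highest, among members with a mean of at least 50, were Ndufc1 (0.40 ± 0.21), Ndufa2 (0.39 ± 0.17) and Uqcr11 (0.38 ± 0.17) between WP and WD, and Cox6a1 (0.37 ± 0.13), Uqcrq (0.34 ± 0.17) and Ndufa11 (0.34 ± 0.15) between KP and KD. These are small accessory subunits of complexes I, III and IV. By longest transcript, Ndufc1 (1249 bases) and Uqcrq (1521 bases) are longer than Sdhd. None of the lowest or highest passed the test, with limma adjusted p from 0.423 to 0.949. What part length, read position or RNA integrity has in these values beyond the covariate fit was not tested.

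By complex, the nuclear medians in WP against WD were 0.23 for complex I (35 of 36 higher), 0.02 for complex II (2 of 4), 0.23 for complex III (10 of 10) and 0.25 for complex IV (12 of 12). In KP against KD they were 0.14, 0.00, 0.21 and 0.16. Complex II split by gene: in both comparisons Sdha and Sdhd had lower means and Sdhb and Sdhc higher ones. Nuclear subunits of ATP synthase, outside the rule, had medians of 0.20 and 0.17 with 15 and 14 of 17 higher. The mitochondrial ribosomal RNAs, read from the same chromosome as the mitochondrial members, were at -0.30 ± 0.22 (mt-Rnr1) and -0.25 ± 0.23 (mt-Rnr2) between WP and WD and at 0.05 ± 0.22 and 0.25 ± 0.23 between KP and KD, none passing the test.

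Between genotypes in liver the respiratory chain genes showed no called difference, against 0.607% of all genes called between KD and WD and 1.45% between KP and WP. The mitochondrial medians were -0.08 and -0.01 and the nuclear medians 0.00 and -0.08, and 5 and 4 of 13, and 28 and 11 of 62, had higher means in the knockout. The balance differed by -0.01 and 0.04, and by 0.21 between KD and WD without WD replicate 1.

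Sdhd, which anchors complex II in the membrane, had the highest log2 fold change among nuclear members with a mean of at least 50 in both genotype comparisons. Its normalised counts were 1719, 2857, 2077, 2603 and 2796 in WD and 2831, 2983, 2541, 3407 and 3058 in KD, and 2358, 2136, 2304, 2147 and 2620 in WP and 2906, 2512, 3178, 2906 and 3031 in KP. The groups overlapped in both pairs, the log2 fold changes were 0.32 ± 0.12 and 0.33 ± 0.12, and the limma adjusted p-values were 0.276 and 0.286. Ndufs1 (0.25 ± 0.13) and Uqcrfs1 (0.20 ± 0.14), the Rieske protein of complex III, came next between KD and WD, and Ndufs1 (0.20 ± 0.13) and Sdha (0.14 ± 0.16) between KP and WP. The lowest were Cox6a1 (-0.28 ± 0.13), Ndufb3 (-0.26 ± 0.14) and Ndufa6 (-0.22 ± 0.14) between KD and WD. Between KP and WP they were Ndufs5 (-0.30 ± 0.15), Ndufb3 (-0.28 ± 0.14) and Ndufa8 (-0.26 ± 0.13). None of these passed the test.

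The one gene of the assembly and regulator lists called in liver was Timmdc1, an assembly factor of complex I. It stood at 311, 323, 338, 340 and 384 normalised counts in WD and at 506, 435, 485, 556 and 499 in KD, and at 290 to 387 in WP and 416 to 543 in KP. Every knockout liver was above every wild-type liver, by 0.55 ± 0.10 between KD and WD (limma adjusted p = 0.0117) and 0.57 ± 0.10 between KP and WP (adjusted p = 0.00415). In spleen it was 219 to 257 in WD and 215 to 278 in KD (0.02 ± 0.08, not called). Timmdc1 lies at chr16:38498347-38522663 (mm10), on the same chromosome and strand as Nr1i2. The member nearest to Nr1i2, Ndufb4 (chr16:37647170-37654453), had log2 fold changes of -0.08 ± 0.15 and -0.13 ± 0.15 in the liver genotype comparisons.

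In spleen members were called only between KP and KD, where 5.30% of all 19058 tested genes were called and 2 of 75 members, both of complex III and both higher in KP. Uqcrc1 (chr9:108936633-108949623, plus strand) encodes a core subunit of complex III. It stood at 2192, 2347, 2195, 2401 and 2265 normalised counts in KD and at 2732, 2388, 3071, 2879 and 2487 in KP. KP replicate 2 fell within the KD range and the other 4 lay above it. The log2 fold change was 0.24 ± 0.07 with a limma adjusted p of 0.0392. Uqcrh-ps1 (chr15:99898289-99898556), the other called row, is a processed pseudogene of the complex III hinge protein gene Uqcrh, with 265 reads in all 19 spleens. It stood at 7.70, 9.14, 12.1, 9.23 and 9.24 in KD and at 12.9, 18.3, 15.6, 19.1 and 16.9 in KP, without overlap, at 0.74 ± 0.21 (adjusted p = 0.0462). Since it shares 18.3% of its 50-base words with other genes, its reads are uncertain.

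The share of members called, 2 of 75, is no higher than the 5.30% of all genes, and most alternatives ended the calls. The adjusted p of Uqcrc1 was between 0.0569 and 0.324 with a replicate block, a fit of the 2 groups alone, scaling to reads outside the mitochondrial chromosome, quantile normalisation or no filter on low values. Its log2 fold change was 0.24 with the block, in the fit of the 2 groups and without a filter, 0.17 after quantile normalisation, and 0.11 scaled to reads outside the mitochondrial chromosome. Leaving out 1 library changed the number of members called to between 0 and 11, with 11 without KP replicate 2 (19.4% of all genes called there). It was 5 without KP replicate 5 (11.7% of all genes) and 0 without each of the other 8. Among those 8 the share of all genes called ran from 0.0525% (without KP replicate 4) to 5.71% (without KD replicate 1). edgeR called the same 2 members, and DESeq2 called Uqcrc1, Cox6a1 and Ndufv1. Cox6a1 stood at 0.28 ± 0.09 (limma adjusted p = 0.0633), Ndufv1, the NADH-binding subunit of complex I, at 0.23 ± 0.08 (0.0914), Ndufb9 at 0.33 ± 0.12 (0.112) and Cox6b2 at 0.35 ± 0.18 (0.249). The lowest with a mean of at least 50 were Cox6a2 (-0.13 ± 0.23), Ndufa3 (0.02 ± 0.09) and Ndufb6 (0.02 ± 0.11).

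Taken over the lists, 60 of 62 nuclear members had a higher mean in KP than in KD (median 0.14, all genes -0.01) and 11 of 13 mitochondrial members a lower one (median -0.04). Scaled to reads outside the mitochondrial chromosome the nuclear median was 0.00, at a median of -0.14 over all genes. The mean log2 level of the nuclear members was 9.25, 9.27, 9.29, 9.38 and 9.29 in KD and 9.52, 9.26, 9.54, 9.59 and 9.28 in KP, so KP replicates 2 and 5 lay with KD and the other 3 above. Cd79a, a B cell gene, was at 3151, 4249 and 3167 normalised counts in those 3 libraries and at 5432 and 5374 in KP replicates 2 and 5, against 5975 to 7833 in KD. All 5 B cell markers were called lower in KP (median -0.60), 3 of 6 erythroid markers (median 0.53) and 5 of 6 neutrophil markers (median 0.66) were called higher, and the summed pancreas markers reached 3897 and 35472 in KP replicates 1 and 4 against at most 60.5 in KD. In whole spleen, fewer cells of a type and less RNA per cell cannot be told apart, and the part of cell makeup in the members' values was not tested.

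The balance in spleen was 4.97, 4.94, 5.02, 4.84 and 4.91 in KD and 4.77, 4.77, 4.75, 4.68 and 4.76 in KP. Every KD library lay above every KP library, and the difference of -0.19 stayed between -0.21 and -0.17 with any library left out. In the share of reads in the first part of mt-Nd4 the same groups overlapped, at 58.4% to 61.7% in KD and 57.6% to 60.5% in KP.

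Between KD and WD in spleen all 13 mitochondrial members had higher means (median 0.24) and 58 of 62 nuclear members lower ones (median -0.12, all genes 0.01). None of the 75 was called, against 0.0315% of all genes. Of the 75, 16 had an unadjusted limma p under 0.05, against 10.5% of all genes. edgeR and DESeq2 also called 0, with 14 and 15 under 0.05. mt-Atp8 stood at 9824, 9232, 9560 and 5296 normalised counts in WD and at 12191, 12476, 11431, 13043 and 13137 in KD, without overlap, at 0.60 ± 0.16 (adjusted p = 0.302). mt-Nd4l was also apart, at 3250 to 4193 in WD and 4526 to 4893 in KD (0.37 ± 0.10, adjusted p = 0.302). The lowest nuclear log2 fold changes were those of Ndufb7 (-0.27 ± 0.09, ranges apart), Ndufv1 (-0.23 ± 0.08) and Ndufs4 (-0.21 ± 0.09), all of complex I, and Uqcrc1 was at -0.19 ± 0.07. The highest were Cox6a2 (0.29 ± 0.25), Cox6b2 (0.05 ± 0.20) and Ndufc1 (0.04 ± 0.16). WD replicate 5 had the lowest mitochondrial level, and without it the mitochondrial median was 0.10 and the balance difference 0.21 in place of 0.37. Without WD replicate 4, mt-Nd5 alone of the members was called, against 0.115% of all genes. With the mt-Nd4 share as a covariate the medians were 0.09 and -0.01. Without WD replicate 4 the nuclear median was -0.21, and without WD replicate 3 it was -0.07. The summed neutrophil markers were 4927 to 6569 in WD and 3048 to 4478 in KD (5 of 6 lower, median -0.75), and the summed macrophage markers 9731 to 12179 and 12563 to 16805 (4 of 4 tested higher, median 0.28), both without overlap and with none called. Their part in the members' values was not tested.

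Between WP and WD in spleen the mitochondrial members were again all higher in mean (median 0.19) and 43 of 62 nuclear members were (median 0.02). Of the 75, 0 were called, as 0% of all genes, and 4 had an unadjusted limma p under 0.05, against 3.81% of all genes. edgeR and DESeq2 called 0, with 3 under 0.05 each. mt-Atp8 was apart from WD here too, at 10010 to 14308 in WP (0.46 ± 0.16, adjusted p = 0.943). Without WD replicate 5 the mitochondrial median was 0.02. KD against WD and WP against WD use the same 4 WD libraries, so their likeness is no second observation. Ndufa7 (-0.17 ± 0.08) and Ndufa12 (0.16 ± 0.11) were the furthest from 0 among nuclear members with a mean of at least 50, with Ndufa5, Cox6b2 and Ndufv3 between -0.11 and 0.13. Between KP and WP both medians were 0.00 with 0 of 75 called against 0.157% of all genes, and Cox6b2 (0.28 ± 0.18) and Ndufa7 (0.16 ± 0.07) were highest and Ndufa12 (-0.14 ± 0.10) lowest. The one member with an unadjusted limma p under 0.05 there was Ndufa7, against 10.9% of all genes. The test of whether the exposure difference differed between genotypes called 0 members and 0% of all genes in limma in liver and in spleen. Of the members, 0 and 7 had an unadjusted limma p under 0.05, against 2.69% and 9.85% of all genes. edgeR also called 0 genes in both, with 0 and 6 members under 0.05. DESeq2 called 0 members in both, with 0 and 8 under 0.05, and 31 genes in all in spleen.

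Genes that build or regulate the chain were read from lists outside the rule, and none was called in the exposure comparisons. In WP against WD livers 11 of 14 complex I assembly genes and 19 of 27 assembly genes of complexes II to IV were higher (medians 0.06 and 0.11), and 8 of 24 genes of mitochondrial transcription, replication and RNA processing (-0.08). In KP against KD livers 6 of 14 complex I assembly genes and 14 of 27 assembly genes of complexes II to IV were higher (medians -0.04 and 0.02), and 9 of 24 genes of mitochondrial transcription, replication and RNA processing (-0.09). In spleen KP against KD the nuclear ATP synthase subunits were higher in 17 of 17 (median 0.17), the mitochondrial ribosomal proteins in 66 of 75 (0.09) and the import and mass genes in 15 of 15 (0.14), with none called. The regulators of mitochondrial gene expression were higher in 6 of 10 in liver (median 0.05) and 5 of 9 in spleen (0.01) for that comparison, and in 2 of 10 between WP and WD in liver (-0.12).

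Members of one genome varied together from library to library. For deviations from group means the median Pearson r between pairs of mitochondrial members was 0.90 in liver (78 pairs, 20 libraries) and 0.74 in spleen (19 libraries), and between pairs of nuclear members with a mean of at least 50 it was 0.76 and 0.69. Between a member of one genome and a member of the other it was 0.06 and 0.00. Those values describe libraries that share scaling and depth and carry no p. Pairs of genes outside the members were not measured, so whether the members vary together more than other genes was not tested. The nuclear members least like the others in liver were Sdha (mean r -0.47), Ndufs1 (-0.31) and Sdhd (-0.10), and in spleen Cox6a2 (-0.61). Among members with a mean of at least 50, the median spread within a group was 0.31 (SD, log2) for mitochondrial and 0.24 for nuclear members in liver, and 0.18 and 0.16 in spleen. For all genes with such a mean it was 0.24 in liver and 0.17 in spleen.

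Promoters of nuclear members were read because these genes varied together. RefSeq promoter windows of 300 bases (GRCm38.p6) were matched to 52 protein-coding members. The NRF1 core GCGCATGC, on either strand, was in 7 of the 52 (13.5%) and in 3.05% of the 27025 genes of the table with a promoter window. The ETS core CCGGAAG was in 11 (21.2%) against 9.93%. Gene types in that background were not compared with those of the members, so the shares are a description. Among 66 matched mitochondrial ribosomal protein genes the shares were 10.6% and 34.8%. Cox6a1 held both and Sdhd an ETS core, as shown in capitals (the reverse complement CTTCCGG in both), in the stretches chr5:115348959-115349145 and chr9:50603864-50603920, both minus strand:

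Cox6a1: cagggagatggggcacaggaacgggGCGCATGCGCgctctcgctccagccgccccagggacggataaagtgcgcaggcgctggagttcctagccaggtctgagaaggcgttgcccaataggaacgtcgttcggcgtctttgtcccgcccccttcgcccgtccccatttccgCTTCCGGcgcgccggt
Sdhd: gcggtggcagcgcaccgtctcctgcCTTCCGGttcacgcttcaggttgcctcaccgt

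In Cox6a1 the NRF1 core and its reverse complement overlap in the first run of capitals. Uqcrc1 held an NRF1 core and no ETS core, and Sdha held neither. By complex either core was in 7 of 32 promoters of complex I, 2 of 3 of complex II, 3 of 5 of complex III and 3 of 12 of complex IV. A match is a run of letters, not a measured binding site.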

How the data were processed

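Liver and spleen RNA-seq tables were analysed. The deposited values are normalised counts, a signal made by the authors from gene counts divided by a size factor per library; per the submitters' processing notes the tools were FastQC, STAR 2.6.0, featureCounts and DESeq2 3.8, on mm10. Whole reads were recovered from the steps of the values (100% whole within 0.05 of a read) for edgeR 4.0.16 and DESeq2 1.42.0. Values were taken as log2(value + 1), genes averaging under 10 across the libraries of a tissue were dropped, and limma 3.58.1 was fitted per tissue over the 4 groups with Benjamini-Hochberg adjustment over all genes and a threshold of 0.05. Lengths, positions and sequences came from GENCODE M21 and RefSeq (GRCm38). Named genes were all mitochondrial members, every called member, the 3 largest rises and falls per comparison among nuclear members with a mean of at least 50, the Sdh genes and the isoform pairs; 1 gene is not reported here. The fit was tested on simulated data. Members and lists were chosen with earlier results of these data known. Reads of 5 mitochondrial members are counted again in full in chromosome 1 copies. Those of parts of mt-Nd4 and mt-Co1 are counted again in Gm28439 and Gm29216, so shares of all reads include both rows. The labels name 2 library kits, without saying which made which library.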

Additional observations from a re-analysis of the deposited data

Results flagged for a closer look

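In 15 of 176 groups of 4 or 5 libraries examined (8.52%), 1 library stood apart by Dixon's criterion, which chance meets in about 1 in 20 groups. Liver WD replicate 3 was high for short nuclear members: Cox6a1 4220 normalised counts (other WD livers 2867 to 3241), Ndufa11 994 (621 to 699), Ndufb3 874 (547 to 621), Ndufs5 1139 (651 to 750) and Uqcr11 3137 (1975 to 2208). Liver WD replicate 1 was high for mt-Nd4, 255136 (120778 to 151626), and mt-Nd4l, 49743 (24192 to 28037). Liver KP replicate 2 was high for Ndufa11, 1077 (688 to 796). In spleen, WD replicate 5 was low for mt-Atp8, 5296 (9232 to 9824), WD replicate 3 was high for Cox6b2, 720 (406 to 453), and WD replicate 1 was low for the share of mt-Co1 reads in its last part, 37.1% (39.5% to 39.8%). The balance of KP replicate 4 was low at 4.68 (4.75 to 4.77), and the mean log2 level of the mitochondrial members in KD replicate 3 was high at 14.31 (14.21 to 14.22). mt-Atp8 as a share of mt-Atp6 was high in WP replicate 1, 28.2% (21.8% to 23.3%), and low in KD replicate 3, 21.3% (25.6% to 27.2%).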

How the results depend on the processing

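The 2 members called between KP and KD in spleen became 0 without a filter, scaled to reads outside the mitochondrial chromosome or to all reads, in the fit of the 2 groups and with the mt-Nd4 covariate, and 1 at a minimum mean of 50 (Uqcrc1) or after quantile normalisation (Uqcrh-ps1). The share of all genes called was 12.9% scaled to reads outside the mitochondrial chromosome and 0.965% in the fit of the 2 groups. It was 1.99% with the covariate and 4.51% after quantile normalisation. With the replicate block 0 members were called, against 4.27% of all genes (limma adjusted p 0.0569 for Uqcrc1 and 0.0534 for Uqcrh-ps1). The block changed no other count of members. Same-numbered libraries deviated together with correlations of -0.38 to 0.45 in liver (median 0.03) and -0.23 to 0.27 in spleen (median 0.06). The median for different numbers was -0.01 in each tissue. Whether replicate numbers mark paired samples cannot be told from these values. Leaving out 1 library in spleen gave 0 to 11 member calls between KP and KD (0.0525% to 19.4% of all genes). Between KD and WD it gave 0 to 1 (0.0210% to 0.115% of all genes). The mitochondrial median between WP and WD in spleen was then 0.02 to 0.27.

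In spleen, quantile normalisation gave a mitochondrial median of -0.24 between KP and KD and -0.38 for the interaction. The nuclear medians were 0.00 and -0.00 scaled to reads outside the mitochondrial chromosome, and 0.01 and 0.01 scaled to all reads. With the mt-Nd4 covariate, chosen after seeing the data, the liver nuclear medians were -0.01 (WP against WD) and -0.10 (KP against KD), and mt-Atp6 was at 0.03 in both. Sdhd between WP and WD in liver was 0.00 and 0.02 under the same read scalings and -0.15 to 0.03 with 1 library left out, and mt-Atp6 was -0.22 to 0.06. Apart from the covariate's construction, the cause was not tested. The 80 alternatives for the balance moved it by less than 1 SD, pooled within groups. That bound is wide: group SDs ran from 0.17 to 0.55 in liver and from 0.04 to 0.39 in spleen. The balance differences were -0.44 and -0.39 in liver and -0.19 between KP and KD in spleen. Scaling a library shifts both genomes nearly alike, so the scaling alternatives could hardly move the balance. The mt-Nd4 covariate was not applied to the balance. Leaving out pseudogenes and members under a mean of 50 was also chosen after seeing the data. Groups of 4 or 5 libraries limit what could be called.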
